A study of Homo sapiens with 6 samples.

Results

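The H19-IGF2 and KCNQ1OT1 domains are neighbouring imprinted domains on human chromosome 11, and their CpG methylation was described here in PC-3 cells. PC-3 is an established prostate carcinoma line derived from a bone metastasis. Cells given 160 µM S-adenosylmethionine (SAM), the methyl donor used by DNA methyltransferases, for 5 days were compared with cells given PBS for the same time, with 3 bisulfite sequencing libraries in each group. All 6 libraries came from the same line. Whether replicates were grown as separate cultures is not stated in the labels, so p-values speak only of the spread among these libraries, which may be technical. The domains were taken by position on the hg19 build, as chr11:2010000-2185000 for H19-IGF2 and chr11:2715000-2910000 for KCNQ1OT1. A CpG belonged to them when at least 10 reads covered it in 2 or more SAM and 2 or more control libraries, which gave 709 of the 686608 CpGs of the whole series. Of the 709, 308 lay in the H19-IGF2 domain and 401 in the KCNQ1OT1 domain, and 330 reached 10 reads in each of the 6 libraries.

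In an imprinted domain the alleles inherited from the mother and the father differ in methylation at a control region, and genes around it are expressed from a single parental allele. At H19-IGF2 the control region lies beside H19, a noncoding RNA, and is methylated on the paternal allele; the insulator protein CTCF binds the unmethylated maternal copy and keeps enhancers from IGF2, a growth factor gene. At KCNQ1OT1 the control region is methylated on the maternal allele and holds the promoter of the noncoding RNA KCNQ1OT1, which runs inside the potassium channel gene KCNQ1 and silences neighbours on the paternal allele. CDKN1C, which encodes an inhibitor of cyclin-dependent kinases, is among these neighbours. Loss of imprinting at IGF2 has been studied in prostate and other tumours.

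The domains were divided by distance into 8 sections, named after the gene the position rule places there and not from an hg19 annotation, which was not used here. The H19-IGF2 domain was divided into H19 and its flank, the H19 control region (chr11:2019000-2024000), the interval from H19 to IGF2, and the last 35 kb, which hold IGF2. The KCNQ1OT1 domain was divided into the stretch before the control region, the KCNQ1OT1 control region (chr11:2720400-2722500), the interval after it, which runs through KCNQ1, and the last 10 kb, which hold CDKN1C. In RefSeq's order of genes, MRPL23-AS1, LINC01219, H19, MIR675, INS-IGF2, IGF2, MIR483, IGF2-AS and INS lie in the first domain. KCNQ1OT1, COX6CP18, LOC124902614, KCNQ1-AS1, KCNQ1DN and CDKN1C lie in the second.

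Sequences of 2 promoters in these domains are shown because several measured CpGs could be placed in them base by base. The promoter of MRPL23-AS1 could also be placed, by 9 listed CpGs, but held only 1 CpG of the 709, at 2011119, and is not shown. They come from RefSeq (GRCh38.p14), run 5′ to 3′ on the plus strand of chromosome 11, and cover chr11:1990846-1991145 for the noncoding RNA LINC01219 and chr11:2869783-2870082 for KCNQ1DN, another transcript of the KCNQ1 neighbourhood. Capitals mark the CpGs that belonged to the 709. Each sequence was placed by the spacing of its CpGs. For LINC01219 all 7 listed CpGs of the window fell on CpGs of the sequence, where the next best placement matched 3. For KCNQ1DN all 20 listed CpGs did, and the next best placement again matched 3. The promoters of H19, INS, INS-IGF2, KCNQ1-AS1 and LOC124902614 could not be placed, and those of IGF2, KCNQ1OT1 and CDKN1C were not used here.
LINC01219: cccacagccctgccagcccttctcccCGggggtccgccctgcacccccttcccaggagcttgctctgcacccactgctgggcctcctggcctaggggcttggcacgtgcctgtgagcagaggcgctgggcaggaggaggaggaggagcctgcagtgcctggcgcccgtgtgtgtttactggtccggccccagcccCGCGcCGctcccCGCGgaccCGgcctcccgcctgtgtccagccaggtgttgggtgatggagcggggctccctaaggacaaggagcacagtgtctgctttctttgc
KCNQ1DN: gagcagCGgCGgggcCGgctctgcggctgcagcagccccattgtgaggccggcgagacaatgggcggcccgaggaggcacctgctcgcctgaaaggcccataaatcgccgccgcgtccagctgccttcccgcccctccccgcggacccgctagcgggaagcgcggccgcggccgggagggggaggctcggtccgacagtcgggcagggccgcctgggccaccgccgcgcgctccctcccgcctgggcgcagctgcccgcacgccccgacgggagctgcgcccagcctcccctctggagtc

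The 7 LINC01219 CpGs, of 15 in the sequence, were little methylated in both groups. The first of them, at 2012102 on hg19, stood at 4.51%, 0% and 10% of reads with SAM (replicates 1 to 3, the order used throughout) and at 0% and 3.004% in control replicates 1 and 3, with control replicate 2 under 10 reads. The other 6, at 2012271 to 2012291, averaged 6.61% and 8.29% in SAM replicates 1 and 3 and 4.06%, 13.0% and 7.98% in control replicates 1 to 3, and both SAM values lay within the range of the controls. The 3 KCNQ1DN CpGs were mostly methylated. They lie at the start of a sequence with 38 CpGs and do not give the level of the whole promoter. The CpG at 2891019 stood at 76.5%, 100% and 79.3% with SAM and at 91.3%, 100% and 90.7% in controls, and the CpG at 2891022 at 79.4%, 100% and 97.2% with SAM and 100%, 86.2% and 100% in controls. At both the groups overlapped. The remaining CpG, at 2891028, reached 10 reads in 4 libraries, at 65.0% to 100%.

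Depth differed between libraries. Coverage summed over listed positions ran from 33056018 to 183523792, with a read counted at every position it covers. The 330 CpGs common to all libraries had median reads of 110.5, 39.5 and 145 with SAM and of 134.5, 44.5 and 94.5 in controls. Read numbers per CpG fell into 2 sets known from earlier work on these data, one of SAM replicate 1 and control replicates 1 and 3 (set A), the other of the remaining libraries (set B). The division is not clean, since the correlation of log2 reads across CpGs was 0.757 to 0.910 within set A and 0.572 to 0.882 within set B, while SAM replicate 2 and control replicate 1, of different sets, reached 0.806. Nothing is known here of what the sets are. Differences within each set are given where a section's groups stand apart. Amplified copies of a molecule cannot be told from independent molecules, so all intervals below cover counting error only.

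Over the 330 common CpGs, each weighted equally, methylation averaged 46.0% ± 1.65 (SD, n = 3) with SAM. In controls it averaged 47.6% ± 1.04 (SD, n = 3), and the groups overlapped. The domains held many CpGs of intermediate level. Of the 709 CpGs, 265 (37.4%) had a mean level of 20% to 80%, 234 were below and 210 above. Over the whole series 13.4% of CpGs were intermediate, 55.0% low and 31.5% high. The shares differed widely between sections. At the KCNQ1OT1 control region 61 of 72 CpGs (84.7%) were intermediate, and at the H19 control region 6 of 11. In the CDKN1C section 95 of 112 CpGs were low and 11 intermediate, and in the IGF2 section 100 of 191 were low and 59 intermediate. In the KCNQ1 interval 113 of 214 were high.

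**Figure D1:**
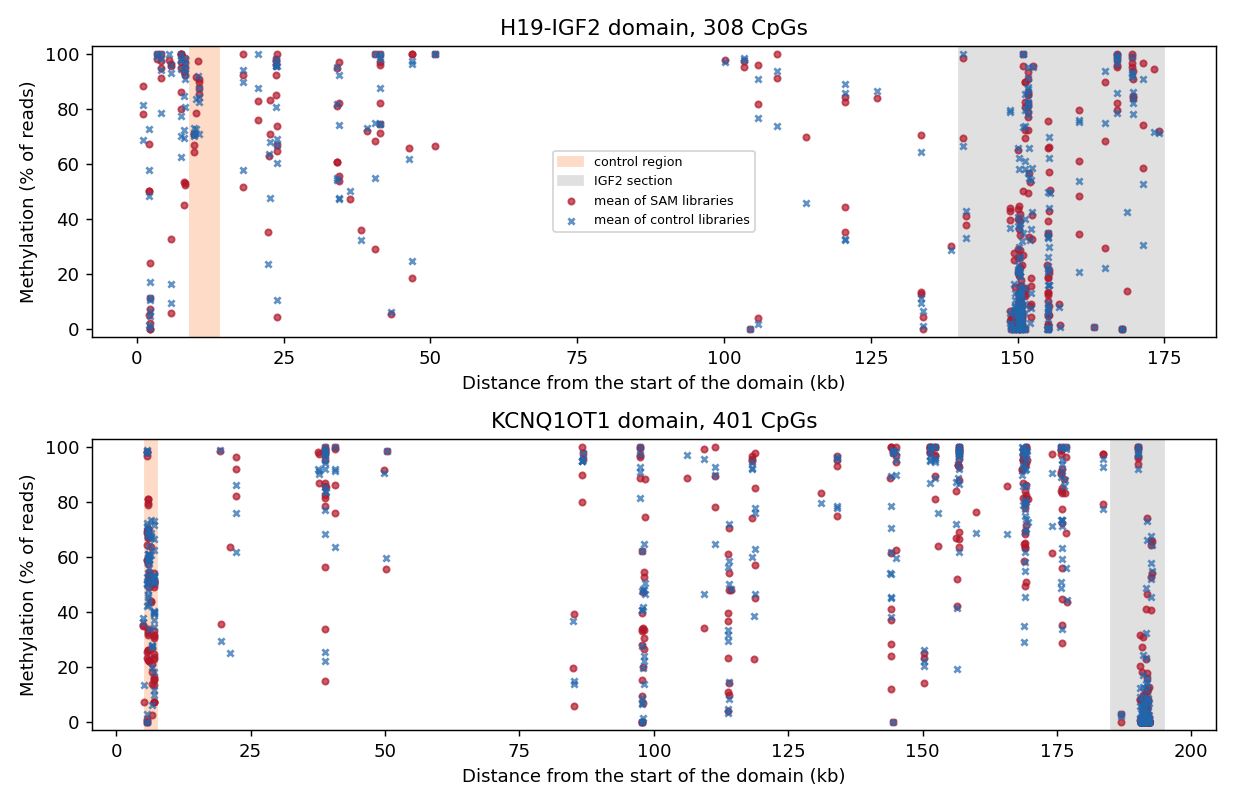
Mean methylation of each CpG, in percent of reads, against its distance in kb from the start of its domain, for the 308 CpGs of the H19-IGF2 domain (top) and the 401 of the KCNQ1OT1 domain (bottom). Red circles are means of the SAM libraries and blue crosses means of the control libraries, each over libraries with at least 10 reads; shading marks the control regions and the IGF2 and CDKN1C sections. The KCNQ1OT1 control region is filled at all heights, while the CDKN1C section gathers near 0%.

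No single CpG or 1 kb tile of either domain changed past the threshold. In a logistic model across replicates with moderated overdispersion, 0 of 651 CpGs tested had an adjusted p under 0.05, against 0 of 490928 in the whole series (0%), and the smallest adjusted p among them was 0.424. An unadjusted p under 0.05 was reached by 75 of the 651, beside 10.2% of all CpGs tested. edgeR's quasi-likelihood test also called 0, with 11 of 309 CpGs at an unadjusted p under 0.05, beside 2.81% of all CpGs it tested. limma called 0, with 39 of 651 at an unadjusted p under 0.05, beside 3.68% of all. Of 29 tiles with at least 3 CpGs, 0 were called, as in the whole series (0%). 1 of the 29 reached an unadjusted p under 0.05, where 7.17% of all tiles did. By edgeR 0 of the 29 did, beside 3.13% of all tiles, and by limma 0, beside 4.23%. The values that follow are therefore described by their size, their spread and whether the groups overlapped. For 3 libraries against 3, the smallest p that an exact permutation test can give is 0.1.

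The groups did not overlap at 28 of the 330 common CpGs (8.48%), 11 higher and 17 lower with SAM. Over the whole series this held for 4.9% of common CpGs, with 2.7% higher and 2.19% lower. Groups that tied, as at 0%, counted as overlapping. Low CpGs made up 55.0% of the whole series and 33.0% of the 709. The shares of CpGs with groups apart were not matched for level, so no excess is read from them. The IGF2 section held 9 of the 28, 3 higher and 6 lower, and the KCNQ1 interval 9, 5 higher and 4 lower. All 6 in the KCNQ1OT1 control region were lower with SAM. The interval from H19 to IGF2 held 2, the CDKN1C section 1, H19 and its flank 1 and the H19 control region 0. Neighbouring CpGs are read by the same fragments, so these are not independent counts. Among tiles, 2 of 29 had groups that did not overlap, where 8.28% of all tiles did. The tile from 2143001 was higher with SAM, as 4.81% of all tiles were, and the tile from 2891001 lower, as 3.47% were.

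The KCNQ1OT1 control region was the section with the largest difference between group means. Over its 46 common CpGs methylation stood at 48.2%, 39.1% and 51.0% with SAM and at 52.7%, 54.5% and 62.9% in controls. Every SAM library lay below every control library, although SAM replicate 3 and control replicate 1 were only a little apart. The group means were 46.1% ± 6.23 (SD, n = 3) for SAM and 56.7% ± 5.43 (SD, n = 3) for controls, so SAM minus control was -10.6 percentage points (standard error 4.77). Within coverage set A the difference was -9.59 points and within set B -9.49. The direction held without any one library, but the size did not: without SAM replicate 2 the difference was -6.84 points and without SAM replicate 3 it was -13.1. When CpGs were weighted by their reads the difference was -3.18 points and the groups overlapped, with SAM libraries at 51.4% to 67.2% and controls at 52.4% to 72.7%. With a minimum of 20 reads, 30 CpGs remained, the difference was -7.71 points and the groups again overlapped. This minimum drops the CpGs at 2722023 to 2722045, where SAM replicate 1 had 10 or 11 reads. The first 3 of them differed by -63.3 points, and 2722045 stood at 0%, 0% and 45.5% with SAM and at 75.0%, 12.5% and 100% in controls. The section mean weights these neighbouring CpGs like all others, so this short stretch adds to its difference. Whether the groups stay apart without this stretch alone was not tested.

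**Figure D2:**
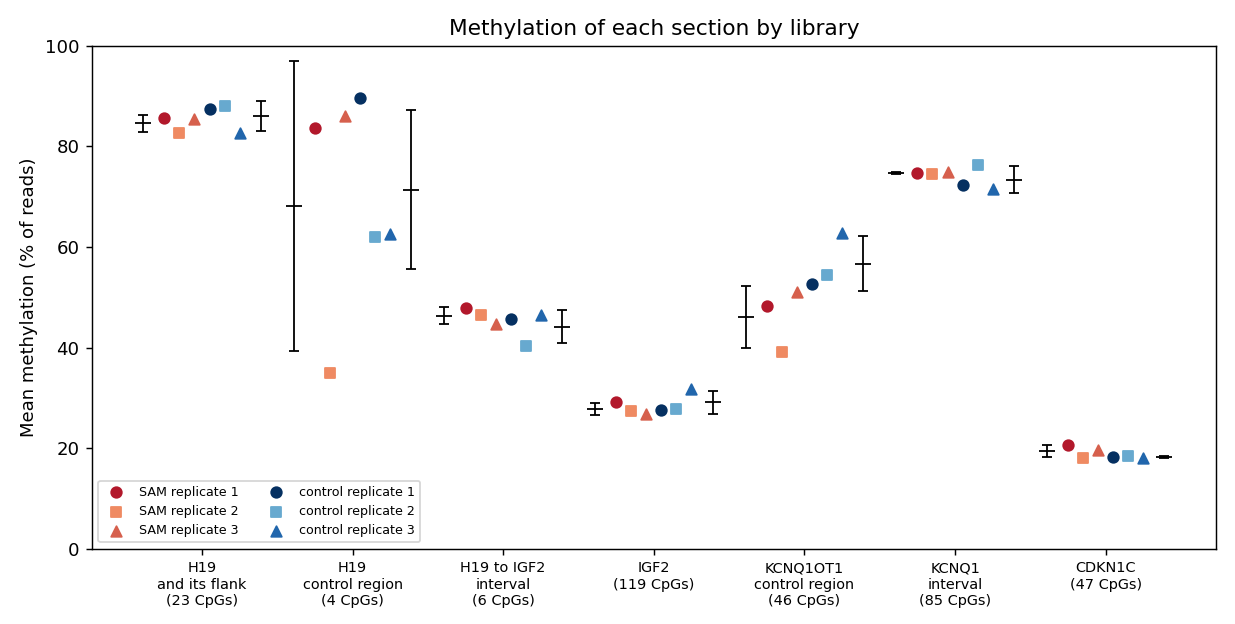
Mean methylation of each section in each library, in percent of reads, over the CpGs with at least 10 reads in all 6 libraries. Symbols are libraries, with SAM in red and controls in blue, and the bars beside them give the group mean and SD (n = 3). In the KCNQ1OT1 control region the SAM libraries at 39.1% to 51.0% lie below the controls at 52.7% to 62.9%, and in the other 6 sections shown the groups overlap.

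The tiles of the KCNQ1OT1 control region were less far apart than the section mean. The tile from 2720001, with 19 CpGs, stood at 72.7%, 63.7% and 58.9% with SAM and at 61.0%, 59.6% and 77.8% in controls (adjusted p = 0.988, logistic model). The tile from 2721001, with 14 CpGs, stood at 63.1%, 38.0% and 54.7% with SAM and at 49.7%, 59.7% and 69.8% in controls (adjusted p = 0.931, logistic model). The tile from 2722001, with 13 CpGs, stood at 42.4%, 31.0% and 29.1% with SAM and at 44.0%, 27.2% and 49.3% in controls (adjusted p = 0.778, logistic model). In all 3 tiles the groups overlapped. A tile sums reads, so its deepest CpGs weigh most.

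Within the KCNQ1OT1 control region, levels differed sharply over short distances. To describe them, neighbouring CpGs no more than 50 bases apart were joined into runs of 3 or more, a rule made after the values were seen. The CpGs of a run were covered in the same libraries, to a like depth, and on the same strands when the reads of all libraries were pooled. Strands were not matched library by library, so in a run with reads on both strands the libraries may differ in strand. There were 101 such runs in the 2 domains, holding 482 CpGs. The run at 2720715 to 2720729 was methylated in every library, at 97.4% to 100%. The CpG at 2720754, 25 bases on, stood at 83.4%, 63.9% and 60.9% with SAM and at 51.3%, 75.0% and 88.2% in controls, with overlapping groups. The run at 2720779 to 2720783 stood at 0% to 2.64% in every library. In control replicate 1 the CpG at 2720754 had 718 reads, 368 of them methylated. In the same library 2720727 had 379 reads, 376 methylated, and 2720781 had 336 reads, 0 methylated. Whether the level at 2720754 is a mixture of the reads of the 2 runs beside it was not tested, so it is not read as a step between them. Nearly full and nearly absent methylation thus lay within 70 bases of each other in all 6 libraries.

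The deepest run of the region, 6 CpGs at 2720965 to 2721005 with a median of 657 reads, stood at 65.0%, 71.8% and 64.3% with SAM and at 66.1%, 66.8% and 67.5% in controls. The next deepest in all 6 libraries with intermediate levels, 8 CpGs at 2722062 to 2722119 on the minus strand with a median of 174.5 reads, stood at 44.5%, 44.0% and 50.9% with SAM and at 43.2%, 48.1% and 49.4% in controls. In both runs the groups overlapped and the libraries lay within 8 percentage points of one another. The last CpG of the second run, at 2722119, stood apart from the other 7, at 6.25% to 18.99%.

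Runs with fewer reads varied far more between libraries. The 7 CpGs at 2721032 to 2721081, with a median of 99 reads, stood at 66.3%, 24.1% and 66.6% with SAM and at 42.3%, 75.0% and 60.4% in controls. SAM replicate 2 was the lowest here, and the groups overlapped. Within a library the 7 CpGs differed little, with a median SD of 2.62 percentage points, while the libraries spanned 50.9 points. The run at 2721534 to 2721555 stood at 61.6%, 34.4% and 51.7% with SAM and at 45.6%, 61.5% and 89.2% in controls, also with overlapping groups.

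In 2 runs of the region covered in all 6 libraries every SAM library was lower, and in 1 run covered in 4 libraries every SAM library was higher. The 2 runs that were lower had reads on both strands over the pooled libraries, and the share of each strand in each library was not compared. The 4 CpGs at 2720927 to 2720942, with a median of 57.5 reads, stood at 29.1%, 24.0% and 38.3% with SAM and at 72.8%, 39.3% and 52.2% in controls. SAM replicate 3 and control replicate 2 were nearly level, and control replicate 1 was far above the rest. Of this run the CpG at 2720927 averaged 33.2% ± 6.02 (SD, n = 3) for SAM and 59.4% ± 19.95 (SD, n = 3) for controls (adjusted p = 0.496, logistic model), and that at 2720939 at 22.5% ± 9.74 (SD, n = 3) and 42.5% ± 5.94 (SD, n = 3) (adjusted p = 0.488, logistic model). The 3 CpGs at 2722023 to 2722038 stood at 0%, 0% and 21.9% with SAM and at 82.7%, 33.5% and 95.7% in controls. SAM replicate 1 had only 10 reads there, so its 0 at 2722023 allows a level of up to 30%, and SAM replicate 2, with 41 reads, up to 7.32%. Control replicate 3, with 23 reads at 2722023, had a 95% Wilson interval of 67.9% to 95.5%. None of these 3 CpGs passed the threshold, with adjusted p of 0.432 to 0.447 in the logistic model. The run that was higher with SAM, 3 CpGs at 2720903 to 2720908, stood at 83.8% and 76.2% in SAM replicates 1 and 3 and at 52.0% and 60.7% in control replicates 1 and 2, 23.7 points apart, with the other libraries under 10 reads. It ends 19 bases before the run at 2720927 to 2720942, where the direction was the opposite. The 24 bases after the run at 2722023 to 2722038 lead into the run at 2722062 to 2722119, in which all libraries lay close together.

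**Figure D3:**
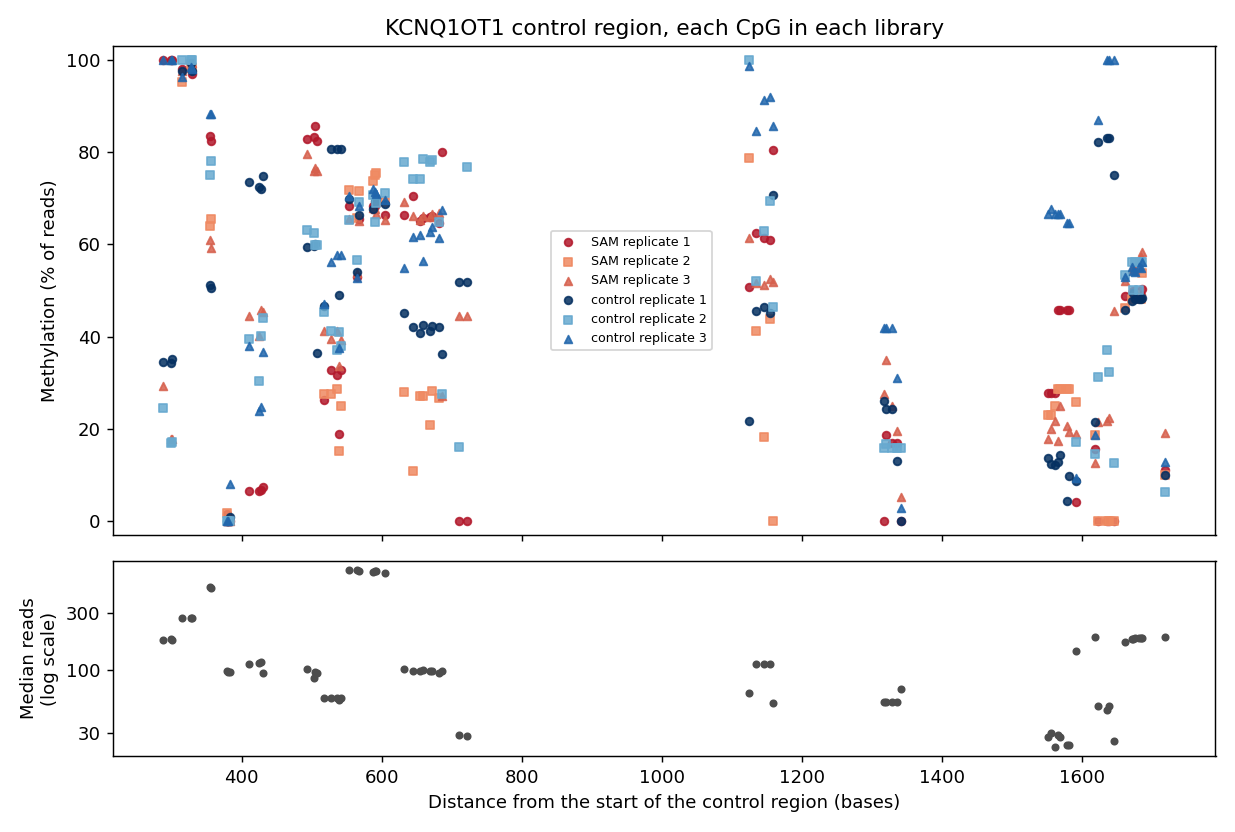
Top, methylation of each of the 72 CpGs of the KCNQ1OT1 control region in each library, in percent of reads, against distance in bases from the start of the region; red symbols are SAM and blue symbols control libraries with at least 10 reads. Bottom, the median reads of each CpG on a log scale. The deepest run, near 580 bases, shows all libraries at 64.3% to 71.8%, and the run near 1630 bases shows SAM libraries at 0% to 21.9% and controls at 33.5% to 95.7%.

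The strands were read unequally in the region. At 23 CpGs a library had at least 10 reads on both strands, which gave 70 pairs of values with means of 51.0% on the plus and 40.8% on the minus strand. The strands of a CpG differed by a median of 22.4 percentage points, and 58.6% of the pairs differed by more than 20 points. Over CpGs of 20% to 80% in the whole series the median was 17.9 points and 45.7% of pairs differed by more than 20. With the plus strand alone the KCNQ1OT1 control region differed between groups by -7.04 points, and with the minus strand alone by -17.6.

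Of the 8 runs of the region covered in all 6 libraries, SAM replicate 2 was the lowest library in 4 and control replicate 3 the highest in 3. Across both domains, spread between libraries went with read depth. Among the 23 runs at 20% to 80% in all 6 libraries, the highest and lowest library differed by a median of 34.2 percentage points in the 14 runs under 100 reads. The median was 12.3 points in the 5 runs of 100 to 300 reads and 6.07 points in the 4 runs over 300. Single CpGs of intermediate level showed the same order. In the KCNQ1OT1 control region the median range was 56.3 points for 16 CpGs under 100 reads and 9.06 points for 9 CpGs over 300, and in the whole series 41.9 points for 23100 CpGs and 10.5 points for 5802. What part depth has in the group difference of the control region was not tested beyond the weighting and the minimum of 20 reads given above.

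**Figure D4:**
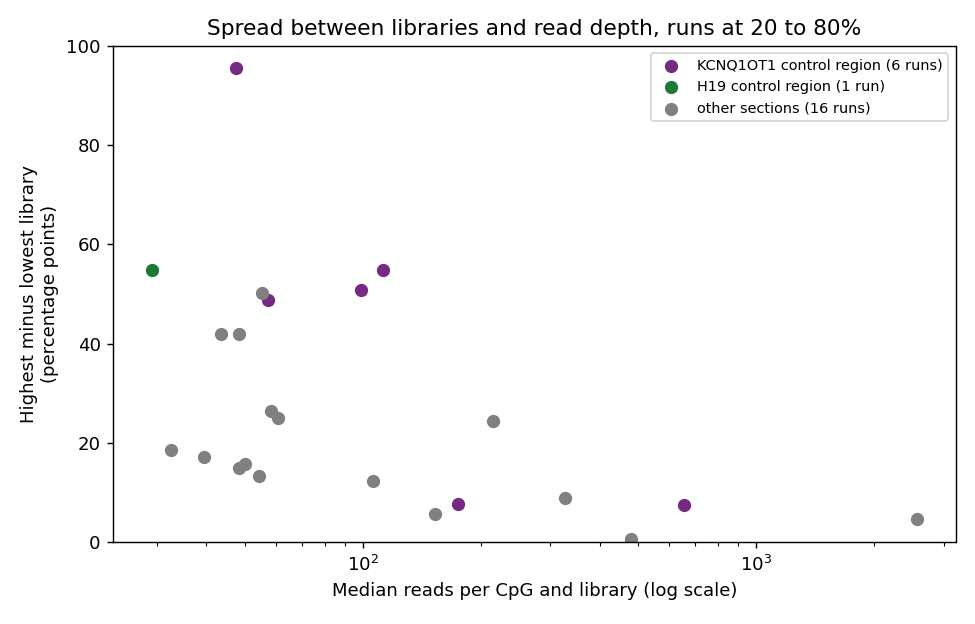
Difference between the highest and the lowest library, in percentage points, against the median reads per CpG and library on a log scale, for the 23 runs with a mean level of 20% to 80% in all 6 libraries. Each point is a run, in purple for the KCNQ1OT1 control region, green for the H19 control region and grey for other sections. The 4 runs over 300 reads lie under 9 points, and the widest, at 95.7 points, has a median of 47.5 reads.

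The H19 control region was thinly covered, with 11 CpGs, of which 4 were common to all libraries and formed a single run at 2019677 to 2019712. These stood at 83.7%, 34.9% and 86.0% with SAM and at 89.7%, 62.0% and 62.5% in controls, with median reads of 46, 14, 53.5, 29, 19 and 30 in that order. SAM replicate 2, the shallowest, was far below the others and the groups overlapped. The group means were 68.2% ± 28.9 (SD, n = 3) for SAM and 71.4% ± 15.8 (SD, n = 3) for controls, which is -3.20 points with a standard error of 19. The direction turned with single libraries. Without SAM replicate 2, 9 CpGs were common, the difference was 10.04 points and the SAM libraries lay above the controls, and without control replicate 1 it was 5.93 points over the 4 CpGs, with overlapping groups. Within coverage set A the difference was 7.6 points and within set B -1.54. The tile that holds this run, from 2019001, had an adjusted p of 0.938 in the logistic model.

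The other 7 CpGs of the H19 control region, at 2020065 to 2020552, had under 10 reads in SAM replicate 2 and were mostly methylated. At 2020065 the levels were 97.1% and 86.3% in SAM replicates 1 and 3 and 78.8%, 72.5% and 100% in control replicates 1 to 3. At 2020504 they were 87.9% and 87.5% with SAM and 81.1%, 91.7% and 90.5% in controls. At both the groups overlapped. At 2020537, which was 83.6% and 87.5% with SAM and 76.0%, 63.6% and 73.3% in controls, the SAM libraries were higher (adjusted p = 0.513, logistic model). They were also higher at 2020496, at 94.8% and 100% against 92.5% and 91.9% in control replicates 1 and 3 (adjusted p = 0.680, logistic model). At the remaining 3 CpGs, 2020101, 2020549 and 2020552, the groups overlapped.

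The common CpGs of H19 and its flank were largely methylated. Of all 39 CpGs of the section, 20 were high, 11 intermediate and 8 low, the LINC01219 CpGs among the low. With each library's own CpGs the section stood at 64.4% to 75.7% across the 6 libraries. Over 23 common CpGs the section stood at 85.7%, 82.7% and 85.4% with SAM and at 87.4%, 88.1% and 82.8% in controls. The groups overlapped, and the difference was -1.48 points with a standard error of 1.93. The deepest run, at 2018186 to 2018219 with 3 CpGs, stood at 92.5% to 95.4% in all libraries. The run at 2018084 to 2018119 was more varied, at 70.6%, 38.9% and 74.3% with SAM and 89.0%, 74.0% and 76.8% in controls. SAM replicate 2, with a median of 22 reads there, was again the lowest, and the groups overlapped. The tile from 2017001 stood at 88.1% to 97.5% with SAM and 86.0% to 89.7% in controls, and that from 2018001 at 90.8% to 94.9% and 90.3% to 95.5%. In both tiles the groups overlapped.

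The interval from H19 to IGF2 was the most sparsely covered for its length, with 67 CpGs over 126 kb. Its 6 common CpGs stood at 48.0%, 46.4% and 44.7% with SAM and at 45.7%, 40.4% and 46.4% in controls, with overlapping groups. These few CpGs do not give the level of the whole interval. With each library's own CpGs it stood at 61.6% to 71.3% across the 6 libraries. Of the 67 CpGs, 31 were high, 28 intermediate and 8 low. The run at 2143573 to 2143605, which makes up the tile from 2143001, was higher in every SAM library, at 32.7%, 32.9% and 31.2% against 30.9%, 24.0% and 30.2% in controls. The gap between SAM replicate 3 and control replicate 1 was small. Control replicate 2, which had 58 to 61 reads at the CpGs named here, lay below the rest. The CpG at 2143573 averaged 13.4% ± 0.808 (SD, n = 3) for SAM and 9.48% ± 2.34 (SD, n = 3) for controls (adjusted p = 0.535, logistic model). The CpG at 2143591, 18 bases on, was 70.6% ± 2.22 (SD, n = 3) and 64.2% ± 6.33 (SD, n = 3) (adjusted p = 0.643, logistic model). The third CpG, at 2143605, did not share the direction in every library. It stood at 16.5%, 12.1% and 9.76% with SAM and at 13.8%, 8.20% and 12.1% in controls. The groups overlapped there (adjusted p = 0.544, logistic model). Adjacent CpGs in one run thus stood at very different levels in all libraries.

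The IGF2 section held the most common CpGs of the first domain, 119. They stood at 29.1%, 27.4% and 26.8% with SAM and at 27.7%, 27.8% and 31.8% in controls. The groups overlapped, and the difference was -1.33 points with a standard error of 1.53. All runs from 2159341 to 2160705 had mean levels under 30%. The tile from 2160001, with 50 CpGs, stood at 12.7%, 19.5% and 14.5% with SAM and at 18.4%, 19.1% and 10.7% in controls, and the tile from 2165001, with 18, at 25.1%, 13.2% and 17.1% and at 17.7%, 18.7% and 31.4%. In both tiles the groups overlapped.

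The largest difference among the CpGs of the IGF2 section with at least 30 reads in every library and groups apart was at 2160236. It stood at 6.74%, 0.465% and 6.76% with SAM, from 178, 215 and 695 reads, and at 23.5%, 35.0% and 31.4% in controls, from 260, 180 and 51 reads. Every control library was well above every SAM library, and the 95% Wilson interval of the highest SAM value, 5.12% to 8.88%, did not reach that of the lowest control, 18.7% to 29.0%. The difference was -25.3 points, with an unadjusted p of 0.000409 and an adjusted p of 0.424 in the logistic model. Its neighbours did not share this. At 2160226 the levels were 26.0%, 55.1% and 28.4% with SAM and 38.8%, 43.0% and 92.5% in controls, and at 2160238, 2 bases on, 30.3%, 71.8% and 32.1% with SAM and 48.5%, 45.8% and 92.3% in controls, with overlapping groups at both. In SAM replicate 2 the level thus went from 0.465% to 71.8% over 2 bases.

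Other CpGs of the IGF2 section differed by less. At 2159479 no methylated read was seen among 159, 44 and 128 reads with SAM, which allows levels of up to 1.89%, 6.82% and 2.34%, and controls stood at 1.90%, 11.8% and 10.9% (adjusted p = 0.455, logistic model). Control replicate 1 stood at the edge of what the SAM counts allow. At 2161710 SAM libraries stood at 93.0% to 94.0% and controls at 94.9% to 95.8%, 1.78 points apart (adjusted p = 0.467, logistic model). This CpG lies in the deepest run of the section, 10 CpGs at 2161690 to 2161734 with a median of 581.5 reads, which stood at 82.1% to 84.7% with SAM and 83.3% to 88.2% in controls. The run at 2158697 to 2158733, on the minus strand, was lower in every SAM library, at 50.7%, 43.2% and 32.4% against 54.4%, 74.4% and 66.7%. SAM replicate 1 and control replicate 1 were close, and SAM replicate 2 had a median of 23 reads.

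Before the KCNQ1OT1 control region 3 CpGs were covered, none in all libraries. Their run at 2720032 to 2720087 stood at 24.9%, 21.9% and 31.0% with SAM and at 27.6% and 31.1% in control replicates 1 and 3. The groups overlapped.

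After the control region, the KCNQ1 interval was mostly methylated. Its 85 common CpGs stood at 74.6%, 74.5% and 75.0% with SAM and at 72.3%, 76.4% and 71.6% in controls, with overlapping groups and a difference of 1.29 points with a standard error of 1.502. The tile from 2753001, with 12 CpGs, stood at 90.0% to 92.9% with SAM and 92.0% to 93.7% in controls, and that from 2883001, with 11, at 90.2% to 93.6% and 84.3% to 91.8%. In both the groups overlapped. Its 3 named CpGs with groups apart differed by under 5 points. At 2829031 the levels were 53.3%, 56.1% and 53.7% with SAM and 52.8%, 50.9% and 47.3% in controls (adjusted p = 0.482, logistic model). At 2866463 they were 100%, 100% and 99.1% with SAM and 97.5%, 97.6% and 91.7% in controls (adjusted p = 0.471, logistic model). At 2753802 SAM replicate 2 stood at 88.3% and the other SAM libraries at 98.2% and 99.3%, with all controls at 100% (adjusted p = 0.539, logistic model).

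2 runs of the KCNQ1 interval stood out for their levels. At 2859574 to 2859582, 3 CpGs were at 97.4% to 100% in every library, while the last, at 2859582, 3 bases on, had 0 methylated reads in every library. Its reads were 1657, 150 and 323 with SAM and 643, 54 and 1591 in controls. These allow levels of up to 0.181% in SAM replicate 1 and up to 5.56% in control replicate 2. The run was read on the plus strand only. Whether PC-3 has the same base as hg19 at this CpG was not tested. The run at 2890992 to 2891022, whose last CpGs lie in the KCNQ1DN promoter shown above, was lower in every SAM library, at 61.5%, 65.7% and 64.6% against 66.7%, 78.7% and 78.8%. SAM replicate 2 and control replicate 1 were about 1 point apart. The tile from 2891001, with 7 CpGs, holds the end of this run and was singled out after its values were seen as the only tile of the domains with an unadjusted p under 0.05. It stood at 82.1%, 82.4% and 79.7% with SAM and at 84.0%, 86.3% and 88.6% in controls, -4.94 points apart, and no SAM library reached a control (adjusted p = 0.668, logistic model).

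The CDKN1C section was little methylated. Its 47 common CpGs stood at 20.6%, 18.1% and 19.6% with SAM and at 18.2%, 18.5% and 18.1% in controls. The groups overlapped, and the difference was 1.17 points with a standard error of 0.740. Most runs were near 0%, among them the 9 CpGs at 2905575 to 2905617, at 0% to 3.14%. The run at 2905069 to 2905100 stood at 95.2% to 100% in all libraries, and the run at 2907574 to 2907604 at 53.0% to 66.3%. The tile from 2905001, with 21 CpGs, stood at 17.1%, 11.0% and 7.69% with SAM and at 9.54%, 3.70% and 18.6% in controls. The tile from 2907001, with 17, stood at 40.8%, 21.5% and 2.87% with SAM and at 9.10%, 3.14% and 34.4% in controls, with overlapping groups. In this tile the 3 libraries with the fewest reads on it, SAM replicates 1 and 2 and control replicate 3, were the highest.

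The deepest run of both domains lay in the CDKN1C section, 6 CpGs at 2906724 to 2906765 with a median of 2570 reads. One of them, at 2906732, stood at 72.7%, 73.5% and 76.5% with SAM and at 74.2%, 71.6% and 73.6% in controls. The groups overlapped, and the libraries lay within 5 points. The CpGs 8 bases before and 6 bases after it were at 7.74% to 18.4% and at 5.19% to 11.5%. At the latter, 2906738, every SAM library was higher, at 10.5%, 11.5% and 11.3% against 9.82%, 5.19% and 9.55% (adjusted p = 0.533, logistic model). Control replicate 2, with 289 reads where the others had 958 or more, was the lowest.

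**Figure D5:**
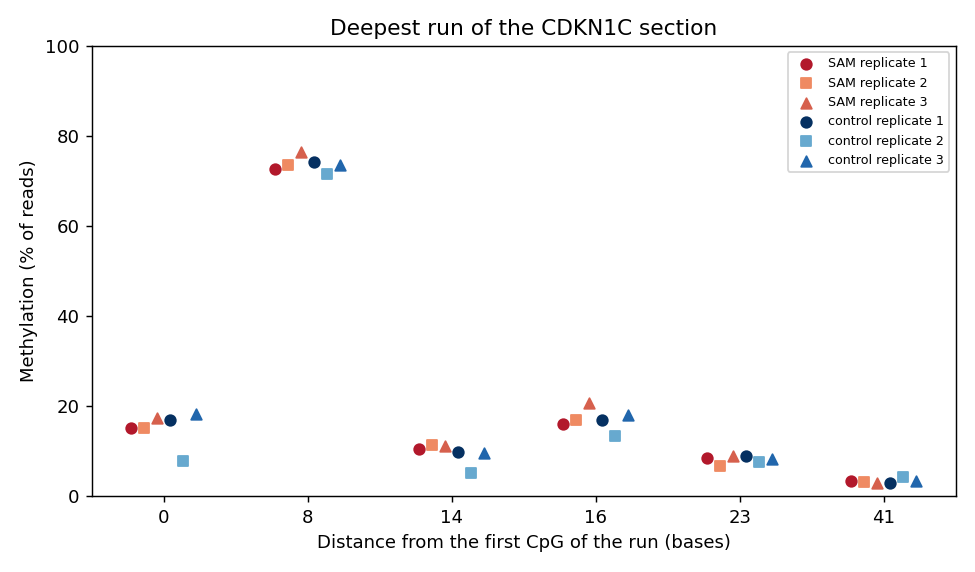
Methylation of the 6 CpGs of the deepest run in the CDKN1C section, in percent of reads, in each library, against distance in bases from the first CpG of the run (evenly spaced, not to scale). Red symbols are SAM and blue symbols control libraries. The second CpG stands at 71.6% to 76.5% in all 6 libraries and the other 5 between 2.87% and 20.8%.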

How the data were processed

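Genomic DNA of 6 PC-3 samples was profiled by bisulfite sequencing. The deposited lists give, for each cytosine, a read count (coverage) and the percent of reads with C and with T, per the file headers. Bismark 0.7.4, methylKit 0.5.3, CASAVA 1.8.2, FastQC 0.10.0 and hg19 are named per the submitters' processing notes, with no role or order. Not given in the sources used here are the library type, the read filters and duplicate removal. The lowest coverage in each list was 10 reads.

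Methylated counts were recovered from coverage and percent C, and the minus-strand C was joined to the plus-strand C 1 base before it. Section levels are means over CpGs with at least 10 reads in all 6 libraries, weighted equally, and were given no test. Single CpGs, and tiles of 1 kb with at least 3 common CpGs, were tested over the whole series with a logistic model on methylated and unmethylated counts, 1 level per group. Its Pearson overdispersion was moderated with limma 3.58.1 (R 4.3.3), with a minimum of 1, followed by an F test and Benjamini-Hochberg adjustment (threshold 0.05). It was tested on simulated data, but its power with 3 libraries per group is not given here. The 0 calls therefore do not show that nothing changed. Libraries under 10 reads at a CpG dropped out of its fit, and CpGs with no methylated or no unmethylated read were not tested.

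CpGs named are those past the threshold and, in each section, up to 3 with the largest difference among CpGs with at least 30 reads in every library and groups apart. Tiles named are those of the control regions and, in each other section, up to 2 with the most CpGs. CpGs named as parts of runs or promoters, and the 11 of the H19 control region, were chosen after their values were seen. The members, sections and lists were chosen with earlier results of these data known. Other settings were a minimum of 20 reads, each library's own CpGs, coverage weights, leaving out CpGs above the 99.9th coverage percentile, single strands, the coverage sets, a replicate block, leaving out each library, other minimum CpG numbers per tile, overdispersion free to fall below 1, no overdispersion, edgeR 4.0.16 and limma on log2 ratios (pseudocount 1), and class limits of 30% and 70%. Intervals are 95% Wilson intervals, and the limit for a count of 0 is 3 counts over the reads. Python 3.11.15, numpy 2.4.6, pandas 2.3.3 and matplotlib 3.10.9 were used.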

Additional observations from a re-analysis of the deposited data

How the results depend on the processing

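The KCNQ1OT1 control region kept its direction in every setting, with -3.18 points weighted by coverage, -17.6 on the minus strand alone and -13.1 to -6.84 when each library was left out. Differences of the other sections changed sign in at least 1 setting. H19 and its flank gave -6.74 at 20 reads, 1.23 with each library's own CpGs, 3.35 on the plus strand, -4.07 in coverage set B and -3.15 to -0.190 without single libraries. The H19 to IGF2 interval gave -1.11 by coverage, 5.15 in set B and 0.141 to 3.32 without single libraries. IGF2 gave 0.974 with own CpGs, -4.63 by coverage and -2.04 to 0.0221 without single libraries. The KCNQ1 interval gave -1.46 by coverage, -1.64 in set B and 0.356 to 1.88 without single libraries. CDKN1C gave -2.27 with own CpGs, 2.08 by coverage, 2.86 and 0.233 on the plus and minus strands, 2.46 in set A and 0.577 to 2.43 without single libraries. The H19 control region ranged from -12.1 to 10.04 without single libraries, and no CpG was left there at 20 reads or on the plus strand alone. The stretch before the KCNQ1OT1 control region had no CpG common to all libraries.

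A binomial model with no overdispersion, which takes no account of spread between libraries, called 183 CpGs and 14 tiles of the domains, and 109120 CpGs and 13755 tiles of the series. All other models called 0. With class limits of 30% and 70%, 172 CpGs were intermediate. Of the tiles named, 6 changed sign when single libraries were left out, none past the threshold. Their ranges were -11.98 to 13.5 points for the tile from 2019001, -3.18 to 1.02 for 2160001, -7.43 to 3.30 for 2165001, -4.82 to 4.83 for 2720001, -2.70 to 5.28 for 2905001 and -3.35 to 15.6 for 2907001. The cause was not tested.

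Deviations of same-numbered libraries correlated at -0.00791 to 0.00846 across CpGs, and those of different-numbered libraries at -0.02 to 0.0242. Replicate numbers thus showed no pairing in these deviations. Whether same-numbered libraries were grown or prepared together was not tested. A replicate block leaves section differences as they are, -10.6 points at the KCNQ1OT1 control region, and gave 0 calls, with 27 of 309 CpGs at an unadjusted p under 0.05, beside 7.18% of all CpGs tested. In the H19 control region the median reads of the common CpGs were 14 to 53.5 per library.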
